A study of Homo sapiens with 12 samples.

Results

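The genes described here are 35 listed enzymes and regulators of cholesterol and fatty acid synthesis, read from the probes that carry their symbols. They come from a fixed list of names, chosen with earlier results of these data known. Of the 35, 33 had a probe and all 33 passed the detection filter, among 12300 genes tested in all. FDFT1 and ACSL3 had no probe under their symbols and are not analysed here. Levels were measured on Illumina Expression BeadChips in 12 xenograft tumours of H3122, a human cell line from lung adenocarcinoma that is driven by the EML4-ALK fusion kinase. The 2 control tumours carry the agent label Control, with no vehicle named, while 4 tumours came from mice given ceritinib, an inhibitor of the ALK kinase, at 75 mg/kg, 3 at 87.5 mg/kg and 3 at 100 mg/kg. The design text says that tumour volume first went down with dose and that resistance then developed under treatment, so that the action of the drug and acquired resistance cannot be told apart. All tumours derive from 1 cell line, and it is not stated whether each grew in its own mouse, so p-values measure the spread between these tumours. Values below are log2 signals after background correction and quantile normalization, differences between groups are on the log2 scale and carry a standard error (SE), and a gene is said to rise or fall only where the limma p-value, adjusted by Benjamini-Hochberg over all 12300 genes, is under 0.05.

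Cells build cholesterol from acetyl-CoA through mevalonate, isoprenoid units, squalene and lanosterol, and build fatty acids from the same acetyl-CoA through malonyl-CoA, with later elongation and desaturation. The SREBP transcription factors, encoded by SREBF1 and SREBF2, are released from the endoplasmic reticulum when sterols are scarce and switch most of these genes on, while INSIG1 holds them back when sterols are plentiful. In the lung, these pathways also feed the lipids of surfactant, and tumour cells use them to make membranes.

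Arrays detected between 38% and 41.2% of 47323 probes, and median signals lay between 134.5 and 147. Of 8 markers of lung adenocarcinoma epithelium, 7 were detected on all 12 arrays and KRT18 on 3. Controls and treated tumours lay apart on the first principal component, with 41.9% of the variance. Marker sums are the log2 of signals added on the linear scale, so the strongest genes weigh most. For 8 alveolar type II cell markers this sum was 12.3 to 12.4 in controls and 13.3 to 14.2 in treated tumours. Of the 8, 7 were detected, and SFTPC was not detected on any array. SLC34A2, also among the 8, went the other way, with 11.20 and 11.42 in controls and 9.18 to 11.32 in treated tumours. The sum of 6 fibroblast markers was 10.8 to 10.9 in controls and 9.31 to 10.5 in treated tumours, with COL3A1 and PDGFRB never detected. For 5 endothelial markers, TEK never detected, it was 9.43 to 9.54 against 9.94 to 10.6. For 6 proliferation genes, all detected, it was 12.9 to 13.3 against 12.1 to 12.8. The part of these shifts in the results below was not tested. In a bulk tumour, fewer cells of a type and less RNA per cell cannot be told apart. The tumours grew in mice, while the probes carry human gene symbols. The sums of fibroblast, endothelial and macrophage markers are therefore no count of stromal cells. Of 6 adipocyte markers, ADIPOQ, PLIN1 and FABP4 were not detected on any array, while LEP was detected on 12, LIPE on 11 and CIDEC on 6. LEP read 10.34 and 12.06 in controls and 11.09 to 12.35 in treated tumours. LIPE read 6.03 and 6.18 in controls and 6.51 to 7.76 in treated tumours. The number of arrays limits the precision.

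As a list, the synthesis genes passed the threshold at a share not above that of all genes. Between treated and control tumours 3 of 33 passed the threshold (9.09%), all higher, where 18.8% of all genes passed, 9.88% higher and 8.97% lower. The median difference of the 33 was 0.06, with 20 positive and 13 negative, against 0.02 over all genes. When arrays were scaled to a common median in place of quantile normalization, the sign of both medians turned, to -0.09 for the 33 and -0.11 for all genes. The calls then split into 1 higher, MVD, and 2 lower, NSDHL and ACSL4, and without any normalization into 1 higher and 3 lower. All 10 treated tumours lay above both controls for 4 of the 33 (12.1%), where 11.5% of all genes did so, and below both for 2, EBP and NSDHL (6.06%), where 11% of all genes did. The 3 that rose were MVD and PMVK of the mevalonate pathway and ELOVL5 of fatty acid elongation. The count was 1, MVD, without control replicate 1 and 1, HSD17B7, without control replicate 2, when 5.88% and 9.91% of all genes passed. It was 7, against 17.2% of all genes, without replicate 2 at 100 mg/kg, where PMVK missed the threshold and ACSL1, FADS1, FADS2, INSIG1 and SCD passed.

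MVD, the decarboxylase that turns the mevalonate chain into the isoprenoid building block, had log2 signals of 7.23 and 7.08 in the 2 controls. It read 8.23, 8.11, 7.64 and 8.04 at 75 mg/kg, 8.01, 7.70 and 7.73 at 87.5 mg/kg, and 8.04, 7.75 and 7.94 at 100 mg/kg. Every treated tumour was above both controls, and the doses overlapped each other. The rise was 0.75 (SE 0.15, 1.69-fold, limma adjusted p = 0.00604) over the treated groups, with 0.85 at 75 mg/kg (SE 0.17, adjusted p = 0.00722) and 0.75 at 100 mg/kg (SE 0.18, adjusted p = 0.0119). At 87.5 mg/kg the difference of 0.66 (SE 0.18) had an adjusted p of 0.0547. Without control replicate 2, the MVD difference was 0.67 over the treated groups (adjusted p = 0.0753), 0.77 at 75 mg/kg (0.064) and 0.68 at 100 mg/kg (0.0903).

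PMVK, the kinase that acts just before MVD, read 9.02 and 9.25 in controls. Its levels were 9.29, 9.42, 9.33 and 9.33 at 75 mg/kg, 9.44, 9.37 and 9.34 at 87.5 mg/kg, and 9.62, 9.82 and 9.67 at 100 mg/kg. Treated tumours were all above the controls, though the lowest lay only just above control replicate 2, and the 3 tumours at 100 mg/kg were above all others. PMVK rose by 0.34 in treated tumours (SE 0.10, adjusted p = 0.0359) and by 0.56 at 100 mg/kg (SE 0.12, 1.48-fold, adjusted p = 0.00591). The treated difference was 0.18 after median scaling (adjusted p = 0.24). It was 0.22 without control replicate 1 (adjusted p = 0.378), 0.45 without control replicate 2 (0.0549), and 0.32 to 0.34 with adjusted p from 0.0513 to 0.0558 without replicates 2 or 4 at 75 mg/kg, replicate 1 at 87.5 mg/kg or replicate 2 at 100 mg/kg. At 100 mg/kg PMVK lost the threshold without control replicate 1 (0.45, adjusted p = 0.0735).

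The other mevalonate genes did not pass in any comparison. They are ACAT2, which joins acetyl-CoA units in the cytosol, HMGCS1, which makes HMG-CoA, the kinase MVK, the isomerase IDI1, and FDPS, which makes farnesyl diphosphate. Over the treated groups their differences lay between -0.06 for FDPS and 0.13 for MVK, and HMGCS1 differed by -0.01 (SE 0.29, adjusted p = 0.981). HMGCS1 read 12.35 and 12.16 in controls and ran from 11.53 through a median of 12.31 to 13.00 in the 10 treated tumours. The treated range enclosed both controls on either side.

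ELOVL5, which lengthens polyunsaturated fatty acids, read 10.69 and 10.70 in controls. It read 11.25, 11.68, 12.01 and 11.60 at 75 mg/kg, 11.16, 11.72 and 11.12 at 87.5 mg/kg, and 11.59, 11.33 and 11.57 at 100 mg/kg. All treated tumours were well above both controls, which were nearly equal, and the doses overlapped. ELOVL5 rose by 0.80 in treated tumours (SE 0.19, 1.74-fold, adjusted p = 0.0144), by 0.94 at 75 mg/kg (SE 0.21, adjusted p = 0.0134) and by 0.80 at 100 mg/kg (SE 0.23, adjusted p = 0.0261). At 87.5 mg/kg the difference was 0.64 (SE 0.23, adjusted p = 0.122). The treated difference was 0.79 without control replicate 1 (adjusted p = 0.125), 0.80 without control replicate 2 (0.0964) and 0.65 after median scaling (0.0545). ELOVL5 at 75 mg/kg was 0.94 without control replicate 1 (adjusted p = 0.102) and 0.95 without control replicate 2 (0.0719). At 100 mg/kg ELOVL5 was between 0.76 and 0.81, with adjusted p from 0.0632 to 0.115, without either control or without replicate 1 or 3 of that dose.

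**Figure D1:**
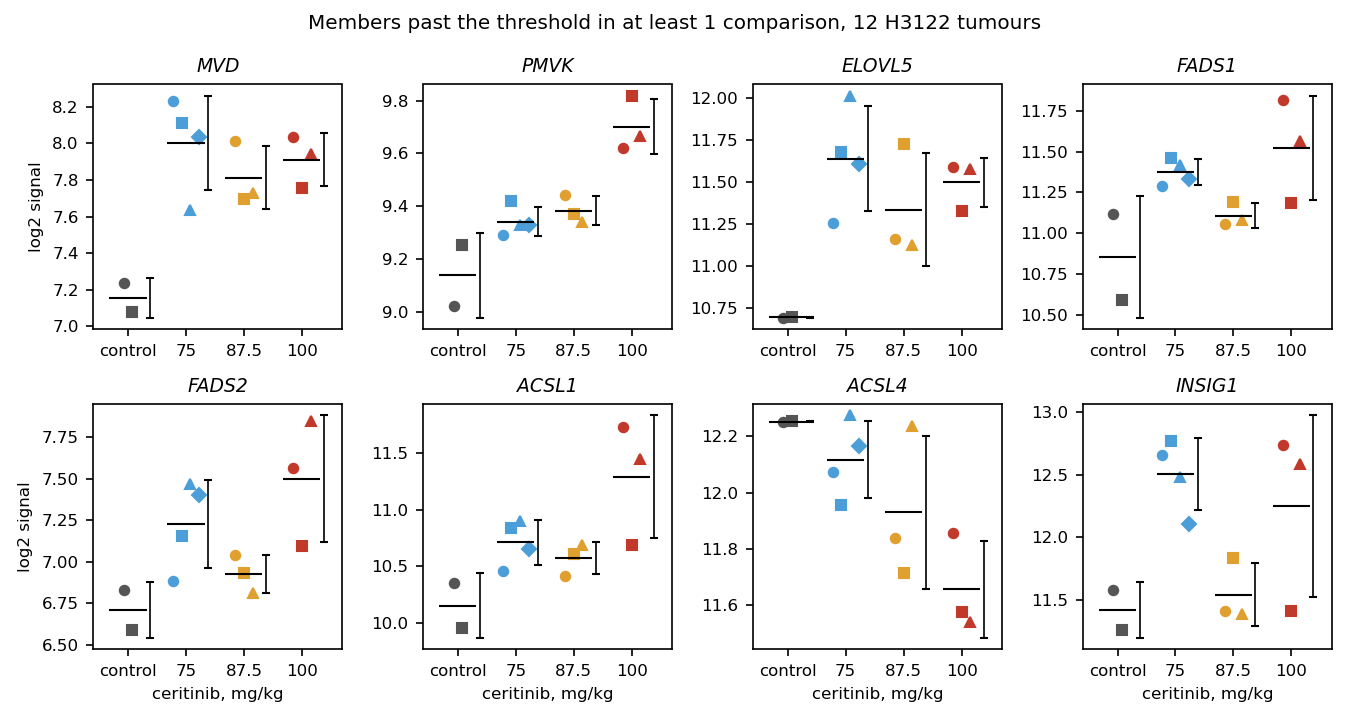
Log2 signal (vertical axes) of the 8 genes past the threshold in at least 1 comparison, by ceritinib dose in mg/kg (horizontal axes). Points are single tumours with a symbol for each replicate number (circle 1, square 2, triangle 3, diamond 4), horizontal lines are group means and bars are SD. For MVD, PMVK, ELOVL5 and ACSL1 every treated tumour lies above both controls. INSIG1, ACSL4, FADS1 and FADS2 have treated tumours within or next to the control range.

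The stretch of 250 bases before the gene start is shown for the 3 genes that rose in treated tumours, since they are the members the treated comparison turns on. Sequences are from RefSeq on GRCh38.p14, read 5′ to 3′ along the gene, and all 3 genes lie on the minus strand. Capitals mark the CCAAT box (CCAAT, or ATTGG on the other strand) and the GC box (GGGCGG, or CCGCCC on the other strand), motifs found beside sterol response elements in many promoters of this pathway. MVD is at chr16:88663092-88663341, ELOVL5 at chr6:53348951-53349200 and PMVK at chr1:154936720-154936969.
MVD: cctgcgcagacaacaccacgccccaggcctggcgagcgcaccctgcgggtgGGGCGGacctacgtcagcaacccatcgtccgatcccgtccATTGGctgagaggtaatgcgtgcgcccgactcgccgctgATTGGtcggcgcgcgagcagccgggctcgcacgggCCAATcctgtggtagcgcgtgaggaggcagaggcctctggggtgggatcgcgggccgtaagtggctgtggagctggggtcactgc
ELOVL5: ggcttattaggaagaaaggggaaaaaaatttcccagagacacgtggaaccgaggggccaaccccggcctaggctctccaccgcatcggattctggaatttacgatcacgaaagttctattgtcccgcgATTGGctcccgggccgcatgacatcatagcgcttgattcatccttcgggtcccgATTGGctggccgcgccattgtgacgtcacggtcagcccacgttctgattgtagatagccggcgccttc
PMVK: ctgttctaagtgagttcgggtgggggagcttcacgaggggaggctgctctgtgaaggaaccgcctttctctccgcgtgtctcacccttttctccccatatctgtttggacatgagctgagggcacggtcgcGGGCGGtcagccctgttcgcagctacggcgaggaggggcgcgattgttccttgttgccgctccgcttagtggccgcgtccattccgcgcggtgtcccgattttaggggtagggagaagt
The MVD stretch held 3 CCAAT boxes and 1 GC box, that of ELOVL5 2 CCAAT boxes, and that of PMVK 1 GC box. A sterol response element was searched on both strands as TCACNCCAC and was in none of the 3. Of the 35 listed genes, 31 had a promoter entry (not FDFT1, SQLE, ACAT2 or FASN). The CCAAT box was in 20 of these 31 (64.5%), against 35.3% of 9869 promoters of tested genes and 32% of all 35116 promoters. The GC box was in 28 (90.3%), against 66% and 42.6%. TCACNCCAC was in 1, that of SREBF2 (3.23%), against 0.841% and 0.883%. A match describes letters in this window and is not a measured binding site. A missing match to this 1 pattern is likewise no evidence that a gene lacks a sterol response element. In the 3 stretches printed no matches share letters.

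Of the 11 listed genes that take squalene to cholesterol, 10 were tested and limma called 0 of them in any comparison against control. An unadjusted p under 0.05 was found for NSDHL and CYP51A1 in treated tumours, for HSD17B7 at 75 mg/kg, and for CYP51A1, SQLE, NSDHL and MSMO1 at 100 mg/kg. How many of all genes reached this unadjusted level was not counted. Over the treated groups their median difference was 0.17, from -0.33 for NSDHL to 0.54 for HSD17B7. SQLE, the epoxidase that oxidizes squalene, read 11.91 and 11.81 in controls and ran from 11.59 through a median of 12.50 to 13.07 in treated tumours. Its difference was 0.54 (SE 0.27, adjusted p = 0.185) over the treated groups and 0.85 (SE 0.31, adjusted p = 0.0748) at 100 mg/kg. CYP51A1, the demethylase of lanosterol, had an adjusted p just past the threshold at 100 mg/kg (0.70, SE 0.23, adjusted p = 0.0506). It passed there without background correction, with an offset of 50, with detection on at least 6 arrays and with the mean of a gene's probes. It also passed with a trended and robust spread, with array weights, and without replicate 2 or 3 at 87.5 mg/kg or replicate 2 at 100 mg/kg. MSMO1, which removes the next methyl groups, differed by 0.48 in treated tumours (SE 0.26, adjusted p = 0.222), where its 2 other probes gave -0.17 and 0.29.

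Lower values were found for NSDHL, a dehydrogenase of the demethylation steps, and EBP, an isomerase of late sterols. NSDHL read 10.80 and 10.86 in controls and 10.22 to 10.67, median 10.53, in treated tumours. EBP read 9.04 and 9.15 in controls and 8.70 to 9.04, median 8.83, in treated tumours. All treated tumours were below both controls for each gene, for EBP by a margin that rounding hides, but the differences of -0.33 (SE 0.13, adjusted p = 0.102) and -0.24 (SE 0.12, adjusted p = 0.204) did not pass. After median scaling NSDHL passed at -0.48 (adjusted p = 0.0185).

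HSD17B7, which acts beside NSDHL, read 12.71 and 14.19 in its 2 controls, a gap of 1.48, and 13.60 to 14.41 in treated tumours. Control replicate 1 lay below all treated tumours and control replicate 2 among them. The difference of 0.54 (SE 0.27, adjusted p = 0.19) became 1.28 without control replicate 2 (adjusted p = 0.00135). HSD17B7 has a near-identical pseudogene, HSD17B7P2, and how the probe splits their signal is uncertain. The remaining genes of this branch are LSS, which closes the lanosterol rings, the reductases TM7SF2 and DHCR7, and the desaturase SC5D. Their treated differences lay between -0.10 (TM7SF2) and 0.28 (SC5D), with the smallest adjusted p at 0.485.

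Among the 4 genes of regulation and sterol transfer, INSIG1 passed at 1 dose and the others in no comparison. INSIG1 read 11.58 and 11.26 in controls. It read 12.66, 12.77, 12.48 and 12.11 at 75 mg/kg, 11.41, 11.83 and 11.38 at 87.5 mg/kg, and 12.74, 11.41 and 12.59 at 100 mg/kg. All 4 tumours at 75 mg/kg were above both controls, those at 87.5 mg/kg overlapped them, and at 100 mg/kg replicates 1 and 3 were high while replicate 2 lay between the controls. INSIG1 rose by 1.08 at 75 mg/kg (SE 0.33, 2.12-fold, adjusted p = 0.0481), where 3 of 33 genes passed (9.09%), all higher, with MVD and ELOVL5, against 14.5% of all genes, 7.37% higher and 7.13% lower. At 87.5 and 100 mg/kg the INSIG1 differences were 0.12 (SE 0.35, adjusted p = 0.88) and 0.83 (SE 0.35, adjusted p = 0.111).

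The INSIG1 call at 75 mg/kg was lost in 13 of 23 alternatives, more than for any other call among the 33 genes. It was lost without either control, at 1.25 without replicate 1 (adjusted p = 0.155) and at 0.92 without replicate 2 (0.233). INSIG1 also missed the threshold, at 1.00 to 1.09 and adjusted p from 0.0525 to 0.0995, without replicates 1, 2 or 3 at 75 mg/kg, replicates 1 or 3 at 87.5 mg/kg or replicate 3 at 100 mg/kg. A second INSIG1 probe differed from controls by 0.75 at 75 mg/kg, -0.25 at 87.5 mg/kg and 0.11 at 100 mg/kg. The number of the 33 genes called at 75 mg/kg was 1 without control replicate 1, 1 without control replicate 2 and 5 without replicate 2 at 100 mg/kg.

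SREBF1 read 12.21 and 12.10 in controls. It read 12.40, 12.25, 12.25 and 12.07 at 75 mg/kg, 12.03, 11.73 and 12.41 at 87.5 mg/kg, and 12.24, 11.87 and 11.82 at 100 mg/kg. The groups overlapped, and the treated difference was -0.07 (SE 0.17, 95% interval -0.43 to 0.30, adjusted p = 0.821). A second SREBF1 probe gave 0.10.

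SREBF2 read 6.39 and 6.61 in controls. It read 6.76, 6.72, 6.42 and 7.04 at 75 mg/kg, 6.46, 6.22 and 6.66 at 87.5 mg/kg, and 6.66, 6.41 and 6.53 at 100 mg/kg. Here too the groups overlapped, with a treated difference of 0.07 (SE 0.16, 95% interval -0.28 to 0.42, adjusted p = 0.793). SREBF2 rests on 1 probe, detected on all 12 arrays but at low signals, where the background limits what can be measured. STARD4, which carries sterol between membranes, was detected on 6 of 12 arrays, on 2 controls and on none at 75 mg/kg, and differed by -0.29 (SE 0.31, adjusted p = 0.554).

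Of the genes that make saturated and monounsaturated fatty acids, limma called 0 of 4 against control at any dose, and SCD at 75 mg/kg had an unadjusted p under 0.05 (adjusted p = 0.143). They are ACLY, which supplies acetyl-CoA from citrate, ACACA, which makes malonyl-CoA, FASN, the synthase, and SCD, which inserts the first double bond. FASN read 13.87 and 12.72 in controls, wider apart than the 10 treated tumours, which ran from 12.62 to 13.51. SCD read 13.66 and 13.20 in controls and ran from 13.21 through a median of 13.96 to 14.32 in treated tumours, with a difference of 0.47 (SE 0.25, adjusted p = 0.217). Without replicate 2 at 100 mg/kg SCD passed at 0.59 (adjusted p = 0.0235). ACLY and ACACA differed by -0.01 and -0.02.

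At 100 mg/kg 7 of 33 genes passed (21.2%), against 22.1% of all genes. Higher were 6 (18.2%), against 11.9% of all genes, and lower was 1 (3.03%), against 10.2%. Beside MVD, PMVK and ELOVL5 the higher genes were FADS1 and FADS2, the neighbouring desaturases of polyunsaturated fatty acids on chromosome 11, and ACSL1, which activates long-chain fatty acids by joining them to coenzyme A. The lower gene was ACSL4, an activating enzyme that prefers arachidonic acid. The count was 4 without replicate 1 at 100 mg/kg and 3 without replicate 3 of that dose, when 17% and 19.4% of all genes passed. It was 11, all higher, without replicate 2 of that dose, when 16.5% of all genes passed. In the last case CYP51A1, INSIG1, MSMO1, SCD and SQLE passed in addition and ACSL4 did not.

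FADS1 read 11.12 and 10.59 in controls. It read 11.29, 11.46, 11.42 and 11.33 at 75 mg/kg, 11.05, 11.19 and 11.08 at 87.5 mg/kg, and 11.82, 11.19 and 11.57 at 100 mg/kg. Tumours at 75 and 100 mg/kg were above both controls, and 2 of 3 at 87.5 mg/kg lay below control replicate 1. The FADS1 rise at 100 mg/kg was 0.67 (SE 0.19, 1.60-fold, adjusted p = 0.0277), and the treated difference was 0.49 (SE 0.16, adjusted p = 0.0596). FADS1 at 100 mg/kg was 0.41 without control replicate 2 (adjusted p = 0.25), 0.53 without replicate 1 of that dose (0.0853), 0.65 without its replicate 3 (0.0637) and 0.63 after median scaling (0.0593).

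FADS2 read 6.83 and 6.59 in controls. It read 6.88, 7.16, 7.47 and 7.40 at 75 mg/kg, 7.04, 6.93 and 6.81 at 87.5 mg/kg, and 7.56, 7.09 and 7.84 at 100 mg/kg. Only replicate 3 at 87.5 mg/kg lay inside the control range among the 10 treated tumours. The FADS2 rise at 100 mg/kg was 0.79 (SE 0.22, 1.73-fold, adjusted p = 0.0274). FADS2 at 100 mg/kg was 0.90 without control replicate 1 (adjusted p = 0.0732), 0.67 without control replicate 2 (0.167), 0.76 without replicate 1 of that dose (0.0701) and 0.62 without its replicate 3 (0.0778). The FADS2 call was also lost after median scaling (0.72, adjusted p = 0.0653), without normalization (0.36, adjusted p = 0.162), with the replicate block (0.70, adjusted p = 0.0677) and with only the groups compared in the fit (adjusted p = 0.0646).

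ACSL1 read 10.35 and 9.95 in controls. It read 10.46, 10.84, 10.90 and 10.65 at 75 mg/kg, 10.41, 10.61 and 10.69 at 87.5 mg/kg, and 11.73, 10.68 and 11.45 at 100 mg/kg. All treated tumours were above both controls, and replicates 1 and 3 at 100 mg/kg were above all others. The ACSL1 rise at 100 mg/kg was 1.14 (SE 0.27, 2.20-fold, adjusted p = 0.0112), the widest of the 33 in any dose against control. The treated difference of 0.71 (SE 0.23) had an adjusted p of 0.0511 and passed in 7 of 22 alternatives. Without control replicate 2, ACSL1 at 100 mg/kg was 0.93 (adjusted p = 0.102), and without replicate 2 at 100 mg/kg its treated difference passed at 0.81 (0.00655).

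ACSL4 read 12.25 in both controls. It read 12.08, 11.95, 12.27 and 12.17 at 75 mg/kg, 11.84, 11.72 and 12.24 at 87.5 mg/kg, and 11.86, 11.58 and 11.54 at 100 mg/kg. The 100 mg/kg tumours were below the controls, and replicate 3 at 75 mg/kg was level with them. At 100 mg/kg ACSL4 fell by 0.60 (SE 0.17, 1.51-fold lower, adjusted p = 0.0276), and a second probe gave -1.31 at that dose. ACSL4 at 100 mg/kg was -0.54 to -0.60, with adjusted p from 0.0742 to 0.117, without either control or without replicate 2 or 3 of that dose. The elongases ELOVL1 and ELOVL6 and LPIN1, a phosphatidate phosphatase, did not pass in any comparison, with treated differences of -0.05, 0.04 and -0.08. Without replicate 3 at 87.5 mg/kg the treated difference of ACSL4 passed at -0.40 (adjusted p = 0.0418).

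At 87.5 mg/kg limma called 0 of 33 genes against control, where 6.18% of all genes passed, 3.25% higher and 2.93% lower, and 2, MVD and ELOVL5, had an unadjusted p under 0.05. The count was 1 without control replicate 2 and 1 without replicate 3 at 75 mg/kg. The median of the 33 was -0.04 there, against 0.20 at 75 mg/kg and 0.15 at 100 mg/kg, while the medians of all genes were 0.01, 0.00279 and 0.04. The 3 comparisons share the same 2 controls. Between the doses themselves limma called 0 of 33 in each pair. Of all genes 0% passed between 87.5 and 75 mg/kg, 0.667% between 100 and 75 mg/kg and 0.78% between 100 and 87.5 mg/kg. In these pairs 3, 3 and 9 of the 33 had an unadjusted p under 0.05. How many of all genes had one was not counted, here or at 87.5 mg/kg against control. The unadjusted numbers therefore have no background to be read against. INSIG1 was lower at 87.5 than at 75 mg/kg by a log2 value of -0.96 (95% interval -1.60 to -0.33, adjusted p = 0.457). PMVK at 100 mg/kg exceeded 75 mg/kg by 0.36 (95% interval 0.14 to 0.57, adjusted p = 0.109) and 87.5 mg/kg by 0.32 (0.09 to 0.55, adjusted p = 0.172).

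**Figure D2:**
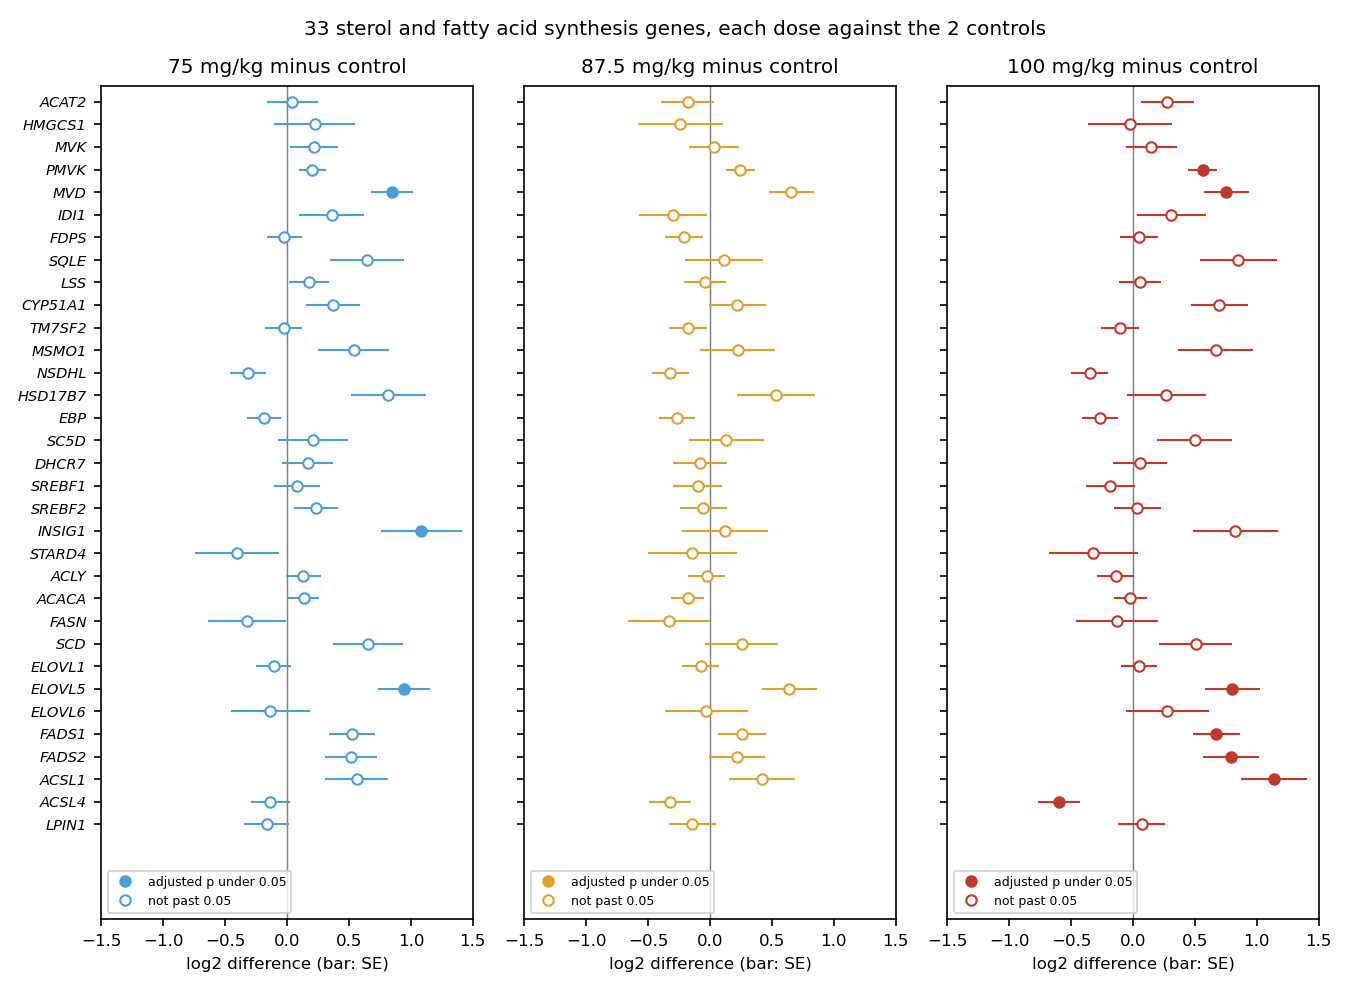
Log2 difference from the 2 control tumours (horizontal axes) for 33 genes in pathway order (vertical axis), at 75, 87.5 and 100 mg/kg of ceritinib. Points are limma estimates, bars are SE, and filled points have an adjusted p under 0.05, which 3, 0 and 7 genes reach.

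Part of the list, of both sterol and fatty acid genes, differed between tumours of the same dose. At 100 mg/kg replicate 2 was the lowest of the 3 tumours for 28 of 33 genes (84.8%), against 32.7% of all 12300 genes. It was below the lower of the other two by more than 0.5 for 13 of the 33 (39.4%), against 3.7% of all genes. These are descriptions, since the tumour was singled out after its values were seen. The gap was 1.18 for INSIG1, 1.08 for SCD, 1.04 for STARD4, 1.02 for HMGCS1, 0.94 for SQLE and 0.91 for IDI1, and the 7 others of the 13 were MSMO1, ACSL1, FASN, SC5D, ACAT2, CYP51A1 and DHCR7.

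HMGCS1 read 12.55, 11.53 and 12.59 in replicates 1, 2 and 3 at 100 mg/kg. SQLE read 13.00, 12.06 and 13.07, and SCD read 14.32, 13.21 and 14.29. Replicates 1 and 3 were close to each other for these 3 genes, and replicate 2 stood about a whole log2 unit lower. Replicate 2 was not the lowest for PMVK, SREBF1, ACSL4, HSD17B7 and TM7SF2. It was the highest of the 3 for PMVK (9.82), HSD17B7 (13.84) and TM7SF2 (11.10).

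Counted against each gene's own mean over 12 tumours, replicates 1 and 3 at 100 mg/kg were above it for 28 and 25 of the 33 genes and replicate 2 for 2. Replicates 2 and 4 at 75 mg/kg were above it for 27 and 26, replicate 3 at 87.5 mg/kg for 6, and control replicates 1 and 2 for 14 and 6. In replicate 2 at 100 mg/kg 57.6% of all genes were above their own mean, and in the other tumours named here 47.1% to 52.9%. In replicates 1, 2 and 3 at 100 mg/kg the arrays detected 19050, 18678 and 18500 probes. The summed epithelial markers were 16.8, 16.7 and 16.8, the proliferation genes 12.5, 12.6 and 12.6, and the macrophage markers 12.7, 12.7 and 12.5. Their part in the low values of replicate 2 was not tested.

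**Figure D3:**
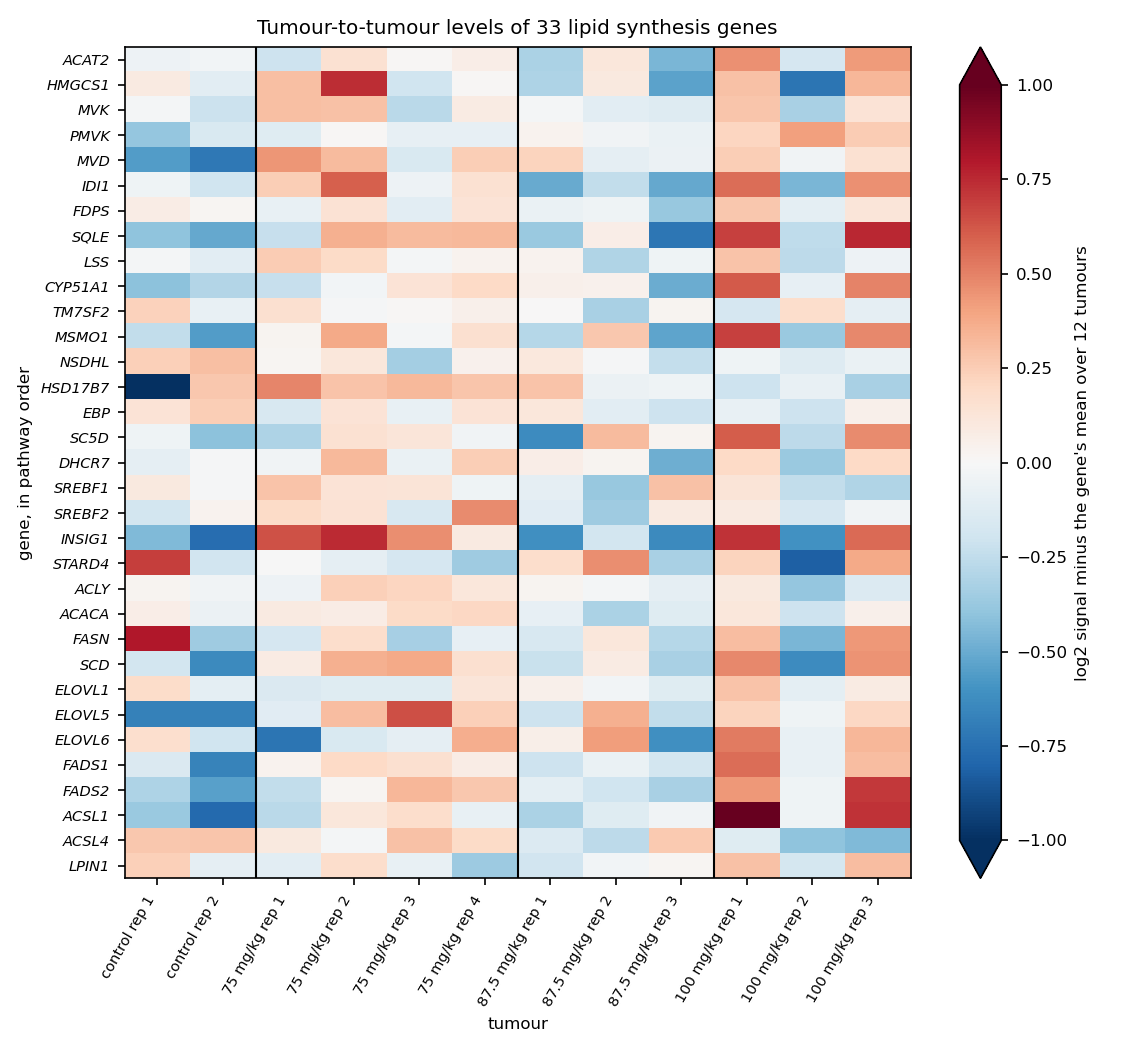
Log2 signal of 33 genes (rows, in pathway order) in 12 tumours (columns, by group), as the difference from each gene's mean over all tumours, with red above and blue below. The column of replicate 2 at 100 mg/kg is below the mean for 31 genes, next to replicates 1 and 3, which are above it for 28 and 25.

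The spread within groups differed between genes. The pooled SD within groups was 0.43 for INSIG1, 0.42 for HMGCS1 and 0.45 for STARD4, against 0.09 for PMVK and 0.20 for MVD, and the median was 0.248 for the 33 genes and 0.215 for all genes. HMGCS1 was taken as an anchor after its values were seen, and the other 32 genes were set against it over the 10 treated tumours. The tumours come from 3 dose groups, so the correlations hold dose differences as well as differences within a dose. The median Pearson's r of the 32 was 0.531, against -0.0351 over all other genes, and it reached 0.8 for 6 of 32 (18.8%), against 0.195% of 12299 genes.

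Since the anchor was chosen for its pattern and the dose groups are mixed, these values carry no test. IDI1 had r = 0.894 and Spearman's rho = 0.891, and r = 0.877 without the 2 tumours farthest from the HMGCS1 median (those numbered 2 at 100 and 75 mg/kg). INSIG1 had r = 0.855 and rho = 0.867, and r = 0.816 without these. MVK, MSMO1, DHCR7, SCD and FASN had r between 0.788 and 0.851 and, without the 2 tumours, between 0.706 and 0.875. SREBF1 had r = 0.114, PMVK -0.198 and TM7SF2 -0.366, and without the 2 tumours these were -0.301, 0.468 and -0.236.

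HMGCS1 and INSIG1 are shown by the same 250 bases before the gene start, as an upstream enzyme and a regulator among the genes that were low in replicate 2 at 100 mg/kg. They were picked after their values were seen. Capitals again mark CCAAT and GC boxes. HMGCS1 lies on the minus strand at chr5:43313413-43313662 and INSIG1 on the plus strand at chr7:155297628-155297877.
HMGCS1: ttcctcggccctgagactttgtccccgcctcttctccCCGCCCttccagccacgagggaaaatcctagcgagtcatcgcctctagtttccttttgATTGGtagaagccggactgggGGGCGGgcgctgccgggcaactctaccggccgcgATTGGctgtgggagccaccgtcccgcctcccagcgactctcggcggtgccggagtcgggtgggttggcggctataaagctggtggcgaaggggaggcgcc
INSIG1: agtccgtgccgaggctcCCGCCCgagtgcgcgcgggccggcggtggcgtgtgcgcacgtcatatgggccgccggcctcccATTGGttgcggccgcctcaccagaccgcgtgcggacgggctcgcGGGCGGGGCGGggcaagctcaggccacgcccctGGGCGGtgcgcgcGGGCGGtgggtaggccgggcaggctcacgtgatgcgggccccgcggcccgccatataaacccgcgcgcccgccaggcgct
The HMGCS1 stretch held 2 CCAAT boxes and 2 GC boxes and that of INSIG1 1 CCAAT box and 5 GC boxes, of which 2 share letters. TCACNCCAC was in neither of these windows.

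Other lipid genes, from lists of the same pathways chosen with earlier results of these data known, were tested in the same fit. Of 7 listed LXR targets and export genes, which respond to a surplus of sterol, 6 were tested, 4 rose in treated tumours and 0 fell, with a median difference of 0.77, where that of all genes was 0.02. Of all genes 9.88% rose and 8.97% fell in this comparison. The 4 were the sterol exporters ABCA1 (1.23, SE 0.20, adjusted p = 0.00154) and ABCG1 (0.93, SE 0.27, adjusted p = 0.0339), MYLIP, which degrades lipoprotein receptors (0.98, SE 0.15, adjusted p = 0.0013), and NR1H3, the receptor LXR alpha itself (0.60, SE 0.13, adjusted p = 0.00926). ABCA1 read 8.29 and 8.80 in controls and 9.31 to 10.46 in treated tumours, without overlap. ABCG1 in replicate 2 at 87.5 mg/kg, 9.16, lay between its controls of 9.64 and 9.09.

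The ABCA1 difference was 0.97 without control replicate 1 (adjusted p = 0.0502), and NR1H3 was 0.65 and 0.56 without control replicates 1 and 2 (0.0743 and 0.0925). ABCG1 was 1.21 and 0.65 without these (0.0836 and 0.301), 0.78 after median scaling (0.0656), and 0.88 to 0.93 with adjusted p from 0.0505 to 0.0543 without replicate 1 or 4 at 75 mg/kg, replicate 1 at 87.5 mg/kg or replicate 1 or 2 at 100 mg/kg. MYLIP, ACSL5, ELOVL4, LPIN2 and ACAT1 passed in all 22 alternatives tried for treated against control tumours.

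Of 22 other genes of fatty acid synthesis, NADPH supply and activation, 15 were tested, 3 rose and 0 fell, against 9.88% and 8.97% of all genes, with a median of 0.20 against 0.02. ACSL5, an activating enzyme related to ACSL1, read 8.46 and 8.70 in controls and 10.26 to 11.15, median 10.81, in treated tumours. The groups lay far apart, with a rise of 2.18 (SE 0.16, 4.53-fold, adjusted p = 1.43e-05). ELOVL4, an elongase of very long fatty acids, rose by 1.20 (SE 0.19, adjusted p = 0.00136), and AACS, which activates acetoacetate for lipid synthesis, rose by 0.53 (SE 0.12, adjusted p = 0.0109). AACS was 0.41 without control replicate 2 (adjusted p = 0.144) and 0.38 after median scaling (0.0705).

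Of 12 genes of glycerolipid synthesis and storage, 9 were tested, 1 rose and 2 fell, against 9.88% and 8.97% of all genes, with a median of 0.01. LPIN2, a relative of LPIN1, read 8.40 and 8.60 in controls and 9.54 to 10.52 in treated tumours, a rise of 1.47 (SE 0.14, adjusted p = 5.74e-05). LPIN1 differed by -0.08 (SE 0.16), with overlapping groups. CIDEC, a lipid droplet protein that is also among the 6 adipocyte markers, fell by 1.97 (SE 0.45, adjusted p = 0.0107), with detection in both controls but only 4 of 10 treated tumours, so that its fold rests mostly on signals not above background, and MGLL, a monoacylglycerol lipase, fell by 0.84 (SE 0.26, adjusted p = 0.0405). CIDEC was -1.74 and -2.18 without control replicates 1 and 2 (adjusted p = 0.14 and 0.0527). MGLL lost the threshold without either control (adjusted p = 0.215 and 0.189) and, at adjusted p from 0.0526 to 0.0614, without replicates 1, 3 or 4 at 75 mg/kg, replicate 1 at 87.5 mg/kg or replicates 2 or 3 at 100 mg/kg.

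Of 16 other genes of sterol synthesis, uptake and sensing, 12 were tested, 2 rose and 2 fell, against 9.88% and 8.97% of all genes, with a median of 0.13. ACAT1, the mitochondrial counterpart of ACAT2 in ketone metabolism, rose by 1.03 (SE 0.16, adjusted p = 0.00117), where ACAT2 differed by 0.05 (SE 0.18). TMEM97, a sterol-regulated membrane protein, rose by 0.43 (SE 0.13, adjusted p = 0.0347), though it was 0.29 after median scaling (0.172). MBTPS2, a protease that releases SREBP, fell by 0.56 (SE 0.15, adjusted p = 0.0248), and LIPA, the lysosomal lipase, fell by 0.46 (SE 0.13, adjusted p = 0.0268). TMEM97, MBTPS2 and LIPA lost the threshold without either control (adjusted p from 0.0929 to 0.297), and TMEM97 also without replicate 2 or 4 at 75 mg/kg (0.0532 and 0.0501).

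Of 17 genes of fatty acid oxidation, 16 were tested, 3 rose in treated tumours and 0 fell, against 9.88% and 8.97% of all genes, with a median of 0.23. There were 7 that rose at 100 mg/kg, against 11.9% of all genes. PPARGC1A, a coactivator of oxidative metabolism, was detected in neither control and in 9 of 10 treated tumours, and was at least 2.09-fold higher (adjusted p = 0.00417). Its measured means were 5.09 in controls and 7.10 (SD 0.70, n = 10) in treated tumours. The enzymes DECR1 (0.48, SE 0.12, adjusted p = 0.0178) and ECI1 (0.39, SE 0.11, adjusted p = 0.0257), which process unsaturated fatty acids, rose as well. PPARGC1A missed the threshold without control replicate 1 (adjusted p = 0.0727). DECR1 and ECI1 missed it without either control (adjusted p from 0.0911 to 0.234) and after median scaling (0.0928 and 0.124).

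**Figure D4:**
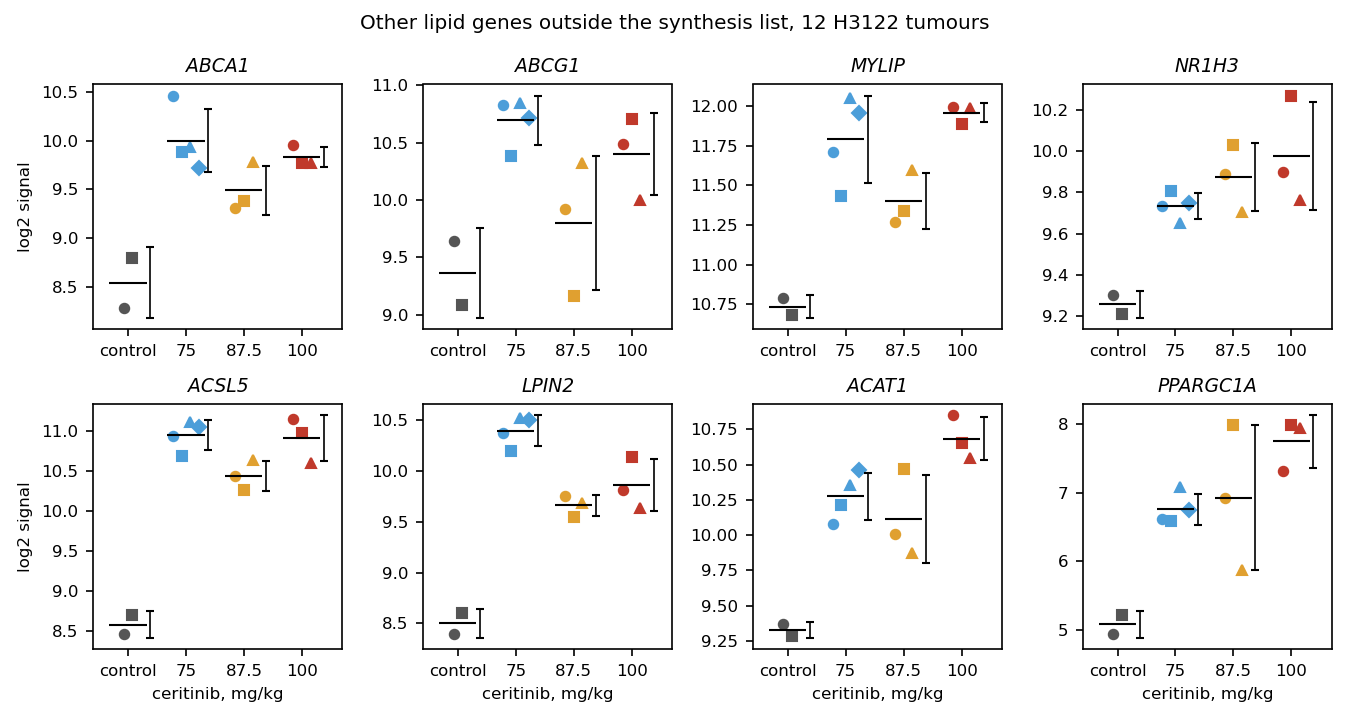
Log2 signal (vertical axes) of 8 lipid genes outside the synthesis list, by ceritinib dose in mg/kg (horizontal axes). Points are single tumours (circle, square, triangle and diamond for replicates 1 to 4), lines are group means and bars are SD. All treated tumours lie above both controls except for ABCG1, where replicate 2 at 87.5 mg/kg, at 9.16, lies between them, and the control points of PPARGC1A are signals that did not pass detection.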

How the data were processed

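The deposited intensity values are average bead signals, 1 for each probe on each array and not on a log scale, from 61.2 to 68257, with no normalization or background subtraction seen in the values. Per the file headers, the text table adds the p-value of detection for each signal. Neither scanner software nor genome build is given in the sources used here. The other table, of values, and the text table hold the same signals at the same positions but share an identifier at 1 of 47323 positions. The identifiers of the table of values were used, since GAPDH then had a median log2 signal of 14.7 (8.92 with the others) and 2 probes of a gene correlated at 0.506 (0.0475 with the others, 4318 genes). Symbols came from the platform table, in which 30113 probes had 1 symbol, 8 several and 17202 none.

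Signals were corrected and quantile normalized with neqc of limma 3.58.1 (R 4.3.3, the data.table package, 1.17.8), with negative controls inferred from detection p-values and an offset of 16. A probe was kept if its detection p was under 0.01 on 2 or more arrays, and a gene was represented by its probe of highest mean. All 12 tumours entered a single fit with 4 groups, so that the 2 controls share the spread of the others, and the treated contrast is the unweighted mean of the 3 dose groups minus control. Tables and figures were made with pandas 2.3.3 and matplotlib 3.10.9 in Python 3.11.15.

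All 35 listed genes are accounted for. Values of every tumour are given for those past the threshold in any comparison and for SREBF1, SREBF2 and INSIG1, and each other list is given by counts and up to 4 genes of smallest p. Genes and lists were chosen with earlier results of these data known, and values of further genes were chosen after they were seen. For a gene that no control array detected, the fold is a lower bound, with undetected signals raised to the lowest detected signal of their array. On simulated data 200 of 12300 genes were changed, treated against control, with noise independent between genes. The fit recovered 13.4% of log2 changes of 0.5, 74.6% of 1 and 98.5% of 2, and 3.13% of its calls were false. In the tumours 2318 genes passed in this comparison and genes can vary together, so these shares need not hold there. The alternatives concerned the background and its offset, normalization, the choice and filter of probes, weights for arrays, the model of the spread, which groups were fitted, a block for replicate number, and each tumour left out in turn.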

Additional observations from a re-analysis of the deposited data

Results flagged for a closer look

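The 33 genes were checked at 75 mg/kg, the group with 4 tumours, for a tumour far from the others. Dixon's ratio is the gap to the nearest other tumour divided by the range of the 4 values. Its 95% critical value is 0.829, which chance exceeds in about 1 of 20 groups. This value was exceeded by 2 genes, with ratios of 0.923 for SQLE and 0.920 for ELOVL1. SQLE in replicate 1 was the lowest at 12.08, against 12.63 to 12.67 in the other tumours of that dose. ELOVL1 in replicate 4 was the highest at 9.52, against 9.26 to 9.28.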

How the results depend on the processing

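In treated against control tumours, where 3 genes passed, the count was 5 without background correction, 5 with a trended and robust spread, 6 with array weights and 1 with the replicate block, and it was 1 to 7 when single tumours were left out. At 75 mg/kg (3 genes) it was 1 with the replicate block and 1 to 5 with single tumours left out. At 87.5 mg/kg (0 genes) it was 3, all lower, on log2 signals without normalization, 1 with array weights, and 0 to 1 with single tumours left out. At 100 mg/kg (7 genes) it was 4 after median scaling, 4 without normalization, 11 with array weights, 4 with the replicate block, 4 with only the groups compared in the fit, and 2 to 11 with single tumours left out. Between 100 and 75 mg/kg (0 genes) it was 1 with the mean of a gene's probes and 1 with only the groups compared, and between 100 and 87.5 mg/kg (0 genes) 1 with array weights. In the other alternatives for these counts they stayed within 1.5 times the reported ones, and no single gene's call changed sign. The direction of the calls did shift: in treated tumours, from 3 higher and 0 lower to 1 and 2 after median scaling and 1 and 3 without normalization, and at 75 mg/kg from 3 and 0 to 1 and 1 under both. Fewer tumours or groups leave less to estimate the spread from, and otherwise the cause was not tested.

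Median scaling moved the median of all genes from 0.02 to -0.11 and the split of all calls from 1215 higher and 1103 lower to 836 and 1775, and without normalization it was 600 and 2595. Relative to that shift, the medians of the 33 genes and of all genes stayed close, at -0.09 and -0.11. Without control replicate 1 or 2 the calls over all genes were 719 and 1205, against 2318. Same-numbered tumours correlated between -0.221 and 0.375 in their deviations from group means over 15 pairs, 4 of them over 0.1. Of 12 tumours, 2 correlated best with their own number. Deviations within such small groups are tied to each other, so these values cannot decide whether same-numbered tumours share a batch. Replicate 2 at 100 mg/kg was the lowest of its group for 28 or 29 of the 33 genes in 5 settings, 4 of them added after seeing the data. For STARD4, detected on 6 of 12 arrays, signal over background limits what can be measured.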
